A study of Mus musculus with 3 samples.

Results

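The p53 pathway was described here through 10 genes: the transcription factor gene Trp53, its inhibitors Mdm2 and Mdm4, and the targets or stress-response genes Cdkn1a, Ccng1, Zmat3, Sesn1, Gadd45a, Gadd45b and Phlda3. They were taken by symbol from a list and make up 10 of the 50600 genes counted. RNA of mouse regulatory T cells, the CD4 T cells that restrain immune responses, was sequenced in 3 libraries, biological replicates 2, 3 and 4. All 3 were primary cells of strain C57BL/6NJ, and per the file headers all had been activated for 16 hours. The libraries form a single group with no untreated, unactivated or p53-deficient counterpart, so the data give levels and differences between libraries, not a response. The labels give 1 donor identifier for all of them, no sex and no age. They name the assay total RNA-seq but link a library protocol for polyadenylated RNA, and they link a CD4 T cell differentiation protocol without saying whether these cells were sorted or differentiated in culture. SDs and p-values below therefore measure the spread or the counting error between libraries, part of it perhaps technical.

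p53 is held low in unstressed cells by Mdm2, a ubiquitin ligase that marks it for degradation, and by Mdm4, a relative that binds and blocks its activation domain. DNA damage or stress in ribosome assembly frees p53, which then raises transcription of arrest genes such as Cdkn1a and of Mdm2 itself, so that the response limits its own length. Because the control acts mainly on the protein, the RNA level of Trp53 does not show how active p53 is. In T cells several of these genes, Gadd45b and Cdkn1a among them, are also driven by antigen receptor, cytokine and NF-kB signals.

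Replicates 2, 3 and 4 held 41222058, 47665060 and 99097524 fragments assigned to genes. Levels are given in TPM, the count divided by exon length and scaled to a common total, which compares genes per length. Each of 8 regulatory T and pan T cell genes had at least 10 TPM throughout, Foxp3 at 80.9 ± 3.97 TPM (SD, n = 3). Pan T cell genes do not separate regulatory from other T cells. No other T cell type was sequenced, so the share of regulatory T cells is not shown. Of 15 markers of B, myeloid, NK, CD8, erythroid, epithelial and stromal cells, 2 reached 1 TPM in every library and 4 had no fragment, among them Lyz2 and Csf1r. Their summed level was 28.04 to 33.3 TPM per library, of which Cd8b1 made up 23.9 to 28.6 TPM. The other CD8 marker, Cd8a, had 0.416 ± 0.0858 TPM (SD, n = 3). The libraries differed in sex-linked RNA. Xist stood at 126, 0.331 and 36.1 TPM and Ddx3y at 0.126, 39.3 and 28.4 TPM in replicates 2, 3 and 4, so results that rest on a single library are also given without it. Replicate 2 had Xist with almost no Ddx3y and replicate 3 the reverse, which goes against a single source animal. Replicate 4 had both, so its cells may come from animals of both sexes, which was not tested. The SDs over 3 libraries may therefore include differences between animals, and between sexes.

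The 10 members ranged in mean level over more than a factor of 100. All 10 reached 1 TPM in every library and 9 reached 10 TPM, against 45.6% and 34.8% of 21764 protein-coding genes. Their median was 59.2 TPM, beside 0.355 TPM over all protein-coding genes and 32.3 TPM over the detected ones (1 TPM in each library). Gadd45b was highest, followed by Trp53, Ccng1, Cdkn1a, Phlda3, Mdm2, Mdm4, Zmat3, Sesn1 and Gadd45a. In this order, the ranges over 3 libraries did not overlap for any of the 9 neighbouring pairs.

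**Figure D1:**
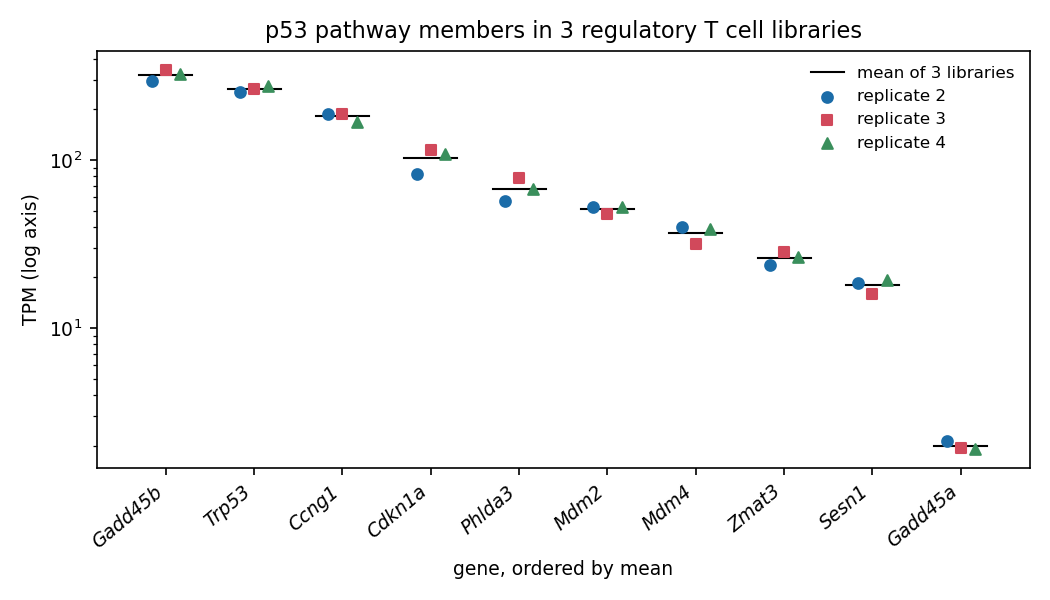
TPM of the 10 genes (log axis) in replicates 2, 3 and 4, with a line at the mean of the 3 libraries. The levels run from 320 TPM for Gadd45b to 2.00 TPM for Gadd45a, and the ranges of neighbouring genes do not overlap.

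The order rests in part on the exon length by which counts were divided. The deposited length is the union of all annotated exons, which for Trp53 is 4045 bases while its longest coding transcript has 1867. With the longest coding transcript as divisor, an alternative added after the data were seen, Trp53 came first at 412 ± 15.2 TPM and Gadd45b next at 286 ± 22.3 TPM (SD, n = 3). On that scale 6 of the 9 neighbouring pairs kept their order without overlap. The mean of Phlda3, 52.7 TPM, then lay below those of Mdm2 (59.5 TPM) and Mdm4 (55.4 TPM). In replicate 3 Phlda3 was above both, and the ranges of these genes all overlapped one another.

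Trp53 itself (ENSMUSG00000059552.13, mm10 chromosome 11, 69580359 to 69591873, plus strand, 7 merged exons) was abundant. It had 254, 264 and 274 TPM in replicates 2, 3 and 4, from 12539, 15297 and 32368 fragments. The mean of 264 ± 9.89 TPM (SD, n = 3) lay at percentile 97.0 of protein-coding genes. Its coefficient of variation of 3.75% was the smallest of the 10 members. The relatives Trp63 and Trp73, which in other tissues share part of p53's targets, had no fragment in any library, where 3 fragments would make at most 0.0293 and 0.0444 TPM. A processed pseudogene, Trp53-ps on chromosome 17, took 6, 0 and 12 fragments. Fragments that fit both the copy and the gene are not in the counts of either. The protein-coding genes whose 3 values lay closest to those of Trp53 included Fen1 and Mea1, at Euclidean distances of 0.0299 and 0.0422 over log2(TPM + 1). Over 3 libraries this measure mostly compares levels.

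The MDM genes were lower than Trp53 and close to each other. Mdm2 (chromosome 10, 117688875 to 117710758, minus strand), both inhibitor and target of p53, had 52.7, 47.8 and 52.7 TPM in replicates 2, 3 and 4, a mean of 51.1 ± 2.81 (SD, n = 3). Mdm4 (chromosome 1, 132959484 to 133030561, minus strand), the relative without ligase activity of its own, had 39.8, 31.7 and 39.1 TPM, a mean of 36.9 ± 4.49. Replicate 3 was the lowest library for both genes. Mdm2 stood below Trp53 by a log2 difference of -2.35 ± 0.10, with -2.25, -2.44 and -2.35 in replicates 2, 3 and 4. The ratio of mean TPM was 0.194, and Mdm2 was the lower gene in 3 of 3 libraries. The size of this gap also depends on length. It was -2.77 with the longest coding transcripts and -2.03 in log2 CPM without division by length.

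Mdm2 exceeded Mdm4 by 0.47 ± 0.10 on the log2(TPM + 1) scale (0.39, 0.58 and 0.42 in replicates 2, 3 and 4). That direction depends on length. The merged exons of Mdm4 span 14798 bases, against 5083 for Mdm2, and without division by length Mdm4 had more fragments in every library, so that the difference became -1.06 in log2 CPM. With the longest coding transcripts (3145 bases for Mdm2 and 7105 for Mdm4) it was 0.11, and the ranges of the 2 genes overlapped.

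**Figure D2:**
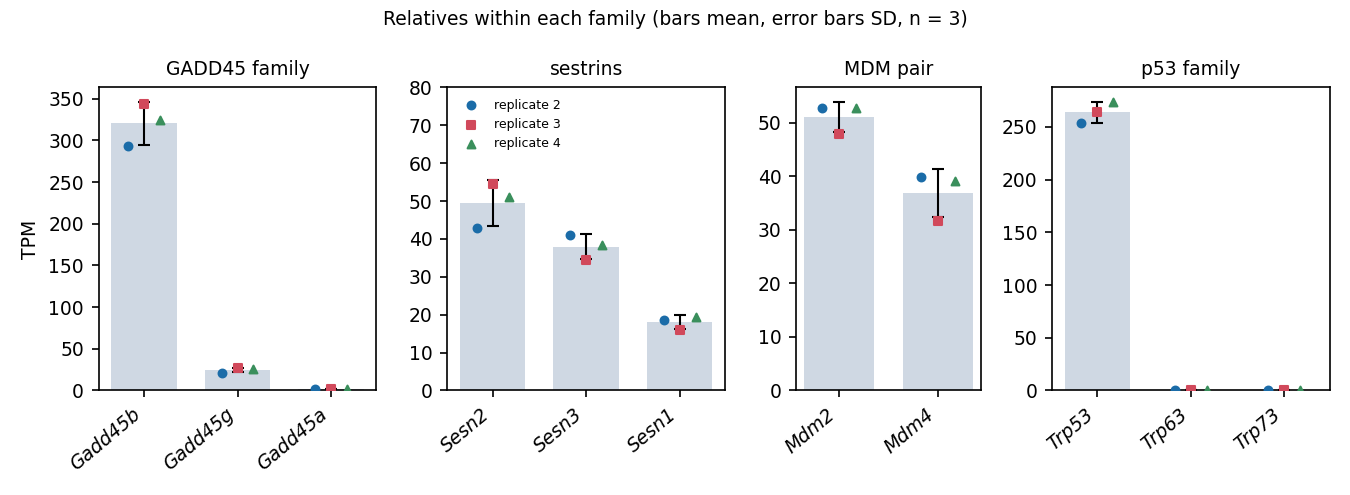
TPM of relatives within the GADD45, sestrin, MDM and p53 families, with bars for the mean, error bars for the SD (n = 3) and points for replicates 2, 3 and 4, each panel with its own axis from 0. Gadd45b stands at 320 TPM beside 2.00 for Gadd45a, and Trp63 and Trp73 have no fragment.

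Cdkn1a encodes p21, the inhibitor of cyclin-dependent kinases through which p53 stops the cell cycle. It lies on chromosome 17 (29090979 to 29100722, plus strand) in 4 merged exons, with alternative first exons that the gene counts do not separate. Replicates 2, 3 and 4 had 82.9, 115 and 108 TPM, a mean of 102 ± 16.9 (SD, n = 3) at percentile 90.9 of protein-coding genes. Replicate 2 was low and the other libraries were close together. Cdkn1a stood below Trp53 in 3 of 3 libraries, by a log2 difference of -1.38 ± 0.21. The size of that gap depends on length: it was -2.39 with the longest coding transcripts and -2.23 in log2 CPM without division by length.

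Ccng1 encodes cyclin G1, a p53 target that in mouse cells recruits a phosphatase to Mdm2. It was the highest of the established p53 targets among the members (chromosome 11, 40748552 to 40755311, minus strand), with 189, 189 and 167 TPM in replicates 2, 3 and 4 and a mean of 181 ± 12.5 (SD, n = 3). Ccng1 exceeded Cdkn1a by a log2 difference of 0.84 ± 0.30 (1.18, 0.71 and 0.63 in replicates 2, 3 and 4). The gap was widest in replicate 2, where Cdkn1a was lowest. Without division by length the difference was 1.49.

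The start sites of Cdkn1a and Ccng1 carried the pairs of p53 decamers found among the members. p53 binds as a tetramer to a pair of copies of a degenerate, palindromic decamer, which was searched in the 250 bases before each RefSeq start site (build GRCm38.p6). A pair was counted with a spacer of 0 to 13 bases and at most 1 mismatch over both copies, with the central C and G required. Since the decamer is palindromic, both strands give the same matches, and overlapping matches were kept. Of 12 windows for 9 members (Zmat3 was not in the table), 2 held a pair, beside 0.505% of all 32851 windows. These windows are shown because they carry such a pair, with decamers in capitals, 5′ to 3′ on the gene's strand.
Cdkn1a, upstream start, chr17:29090729-29090978, plus strand: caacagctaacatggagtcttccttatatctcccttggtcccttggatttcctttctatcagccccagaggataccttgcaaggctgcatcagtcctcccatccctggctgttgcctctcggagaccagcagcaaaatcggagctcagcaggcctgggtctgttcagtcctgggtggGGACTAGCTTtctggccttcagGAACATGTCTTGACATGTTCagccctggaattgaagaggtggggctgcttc
Ccng1, chr11:40755287-40755536, minus strand: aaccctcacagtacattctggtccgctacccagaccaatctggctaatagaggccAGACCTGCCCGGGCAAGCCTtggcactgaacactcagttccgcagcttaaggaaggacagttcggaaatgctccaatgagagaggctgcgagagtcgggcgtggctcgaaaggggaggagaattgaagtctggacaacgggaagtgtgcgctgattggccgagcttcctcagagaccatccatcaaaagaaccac

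The Cdkn1a window belongs to the upstream of 2 start sites listed for that gene. Its decamers began 73, 51 and 41 bases upstream of the start site. Those at 73 and 51 formed a pair with no mismatch and a spacer of 12 bases, a kind found in 0.0639% of all windows. The adjacent ones at 51 and 41 formed a pair with 1 mismatch. The Ccng1 pair began 195 and 185 bases upstream, without a spacer and with 1 mismatch. At least 1 decamer with no mismatch occurred in 6 of the 12 windows, beside 7.13% of all windows. These belong to Trp53, Mdm2, Cdkn1a, Ccng1, Sesn1 and Gadd45a. These matches describe letters only, and the files hold no measure of p53 binding. Introns and other sequence outside the windows were not searched, so a member without a pair here may carry one elsewhere.

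Gadd45b and Gadd45a, small stress proteins that bind the kinase Map3k4 and PCNA, lay at opposite ends of the order. Gadd45b (chromosome 10, 80930073 to 80932204, plus strand), known in T cells as a gene induced by cytokine and NF-kB signals more than by p53, had 293, 344 and 325 TPM in replicates 2, 3 and 4. Its mean of 320 ± 25.6 TPM (SD, n = 3) lay at percentile 97.7 of protein-coding genes. Gadd45a (chromosome 6, 67035096 to 67037457, minus strand), the classical p53 target of the family, had 2.14, 1.94 and 1.92 TPM. These came from 46, 49 and 99 fragments, with 95% Poisson intervals of 1.56 to 2.85, 1.43 to 2.56 and 1.56 to 2.34 TPM that cover counting error only.

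Gadd45b was 137, 177 and 169 times as high as Gadd45a in replicates 2, 3 and 4, a log2(TPM + 1) difference of 6.74 ± 0.17 (SD, n = 3). It was the largest of the 5 differences between members that were computed, under every alternative tried. The third relative, Gadd45g, stood between them at 24.5 ± 2.83 TPM. On the opposite strand the processed transcript E230016M11Rik shares 337 exon bases with Gadd45a and had 0.334 ± 0.101 TPM. Per the file headers the counting used strand, which separates such fragments from the gene's.

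The windows before both start sites are shown because this pair differed most. Capitals mark the TATA box letters TATAAA in Gadd45b and the single p53 decamer in Gadd45a. Both counted genes begin inside these windows, upstream of the RefSeq start sites, and the Gadd45a decamer lies within the counted gene.
Gadd45b, chr10:80929841-80930090, plus strand: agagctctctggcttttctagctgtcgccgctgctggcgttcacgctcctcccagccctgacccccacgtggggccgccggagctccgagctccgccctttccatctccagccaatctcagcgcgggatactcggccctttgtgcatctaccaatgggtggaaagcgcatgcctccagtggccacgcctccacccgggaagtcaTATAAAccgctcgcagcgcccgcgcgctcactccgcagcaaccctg
Gadd45a, chr6:67037408-67037657, minus strand: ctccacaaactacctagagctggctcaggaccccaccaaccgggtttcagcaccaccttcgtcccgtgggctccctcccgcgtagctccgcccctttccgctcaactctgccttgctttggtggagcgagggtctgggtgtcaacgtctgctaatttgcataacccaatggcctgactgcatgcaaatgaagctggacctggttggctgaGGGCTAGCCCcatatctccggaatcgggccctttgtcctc
TATAAA, searched on the gene's strand only, began 46 bases upstream of the Gadd45b start site. It occurred in 7.59% of all windows and in that 1 window among the members. The observed over expected ratio of CpG was 0.873 for Gadd45b and 0.516 for Gadd45a, beside a median of 0.374 over all windows.

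The remaining targets lay between these extremes. Phlda3, which competes with AKT for membrane lipids and so dampens its signal, had 57.1, 78.1 and 66.8 TPM in replicates 2, 3 and 4, a mean of 67.3 ± 10.5 (SD, n = 3; chromosome 1, 135766119 to 135769136, plus strand). Zmat3, an RNA-binding protein that takes part in splicing and mRNA stability downstream of p53, had 23.6, 28.2 and 26.6 TPM, a mean of 26.2 ± 2.34 (chromosome 3, 32334792 to 32366014, minus strand). For both genes replicate 2 was lowest and replicate 3 highest.

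Sesn1, the sestrin most tied to p53 and a leucine-responsive inhibitor of mTORC1 through GATOR2, had 18.6, 16.01 and 19.4 TPM, a mean of 18.01 ± 1.77 (SD, n = 3; chromosome 10, 41809935 to 41908424, plus strand). It was the lowest of its family. Sesn2, driven mainly by the integrated stress response, stood at 49.4 ± 6.03 TPM and Sesn3, a FOXO target, at 38.0 ± 3.36 TPM, and both exceeded Sesn1 in 3 of 3 libraries.

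Each of the 5 comparisons between members kept its sign in 3 of 3 libraries. The exact two-sided sign-flip permutation test gave p = 0.25 for each, also after adjustment over the 5, which is the smallest p that 3 libraries allow. None can therefore pass a threshold of 0.05.

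Between libraries the members differed by less than a factor of 2. A chi-square test of equal rates on TMM-normalised library sizes, adjusted over 13688 genes (Benjamini-Hochberg), called 9 of 10 members at an adjusted p under 0.05, against 70.5% of all genes tested. This test sets counting error alone against the differences and says nothing of conditions. Ratios of the highest to the lowest library were taken in CPM, here the count over the same TMM-scaled library size, with no division by length. When that ratio also had to reach 2, 0 of 10 members were called, against 11.0% of genes, low-count genes included. Ratios ran from 1.08 for Mdm2 to 1.43 for Cdkn1a, with a median of 1.20 over the members and 1.12 over the 7568 protein-coding genes that had at least 10 TPM in each library. Gadd45a was the member not called on adjusted p (ratio 1.10, chi-square adjusted p = 0.88). A run with library sizes corrected by GC class, described below, covered 7567 protein-coding genes at 10 TPM or more. In it 3 genes (0.0396%) were called with the ratio rule, and 0 of 9 members. Within that run, the 0 members called lie near the share among genes of like level. It leaves out Gadd45a, and the share without the GC correction was not computed for such genes.

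Cdkn1a and Phlda3 varied most. Their TPM had coefficients of variation of 16.6% and 15.6%, at percentiles 98.0 and 97.2 of the 7568 genes, whose median was 6.09%. Cdkn1a had 54.0, 77.4 and 71.1 CPM in replicates 2, 3 and 4 (chi-square adjusted p = 1.4e-40), and Phlda3 26.1, 36.8 and 30.9 CPM (chi-square adjusted p = 1.3e-17). Both were lowest in replicate 2. Without replicate 2 the ratio of Cdkn1a was 1.09 and that of Phlda3 1.19, both still called.

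**Figure D3:**
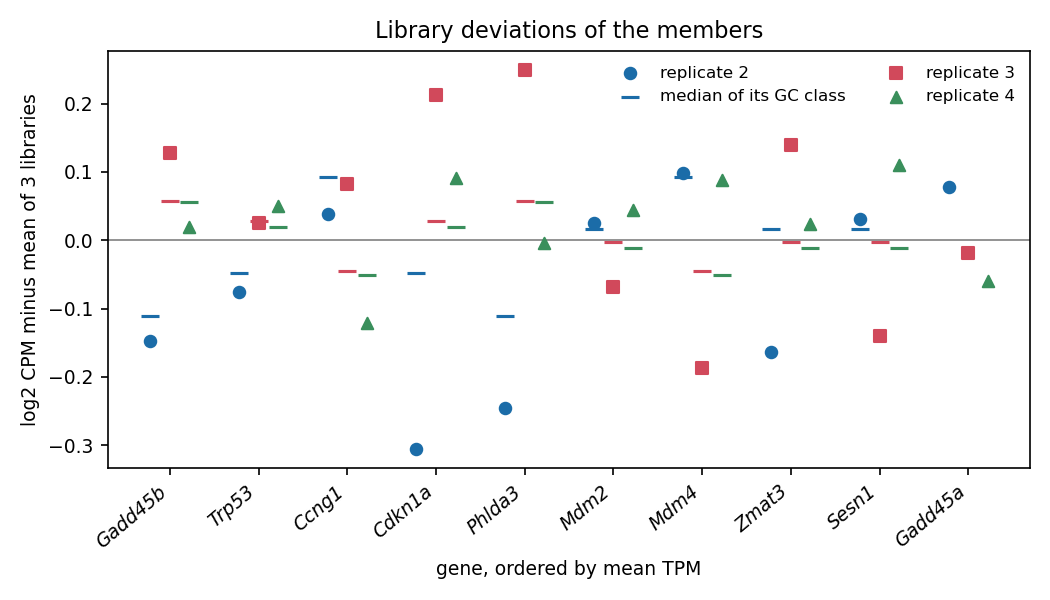
Deviation of each library from the mean of the 3 in log2 CPM, for the 10 genes ordered by mean TPM. Points stand for replicates 2, 3 and 4 and dashes of the same colour for the median of protein-coding genes in the gene's GC class (no class for Gadd45a, which is under 10 TPM). Cdkn1a and Phlda3 lie lowest in replicate 2, at -0.31 and -0.25, and below the dashes of their classes.

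The members fell into different library patterns. In CPM, 5 of 10 were lowest in replicate 2, against 43.6% of those 7568 genes, and 3 were lowest in replicate 3, against 27.9%. Cdkn1a, Phlda3, Zmat3 and Gadd45b were lowest in replicate 2 and highest in replicate 3, a pattern of 24.2% of those genes. The first pair of counts was near the background, and with 10 members the last was not tested.

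Base composition moved with the libraries. Among those genes, in 4 equal classes of transcript GC content, the median deviation of replicate 2 was 0.09 log2 in the lowest class (34.1% to 45.6% GC) and -0.11 in the highest (55.0% to 69.4% GC). Cdkn1a, in the class below the highest, has 54.4% GC and Phlda3, in the highest, 62.6%, and with the class median taken off, their deviations in replicate 2 were -0.26 and -0.13. For Gadd45b (56.9% GC) the deviation of -0.15 became -0.04. For Zmat3 (47.6% GC), of the same library pattern, the deviation of -0.16 became -0.18. Library sizes corrected by GC class were an alternative added after the data were seen. With them the ratios of Cdkn1a, Phlda3 and Gadd45b were 1.36, 1.25 and 1.08, against 1.43, 1.41 and 1.21 before. That of Zmat3 did not fall, at 1.25 against 1.23 before. By exon length, the medians under 2 kb and at 8 kb or more were -0.03 and 0.03 in replicate 2, and 0.05 and -0.05 in replicate 3. In replicate 3 the lowest and highest GC classes had medians of -0.05 and 0.06, a spread close to that by length. What part sex-linked or other differences between the libraries had in these values was not tested.

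The rest of the p53 pathway was described with 65 further genes in 10 lists. Of these, 58 reached 1 TPM in every library and 51 reached 10 TPM, beside 45.6% and 34.8% of protein-coding genes. No fragment was found for 6, and the median was 29.8 TPM. Between libraries, 49 of the 59 tested were called on the adjusted p of the chi-square test, against 70.5% of all genes tested, and 1 had a ratio of 2 or more as well, against 11.0%. That gene, Dram1, named after its values were seen, is a lysosomal p53 target and had 23, 25 and 15 fragments. The 11.0% includes low-count genes, so it is not a like background for the 51 genes at 10 TPM or more.

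**Figure D4:**
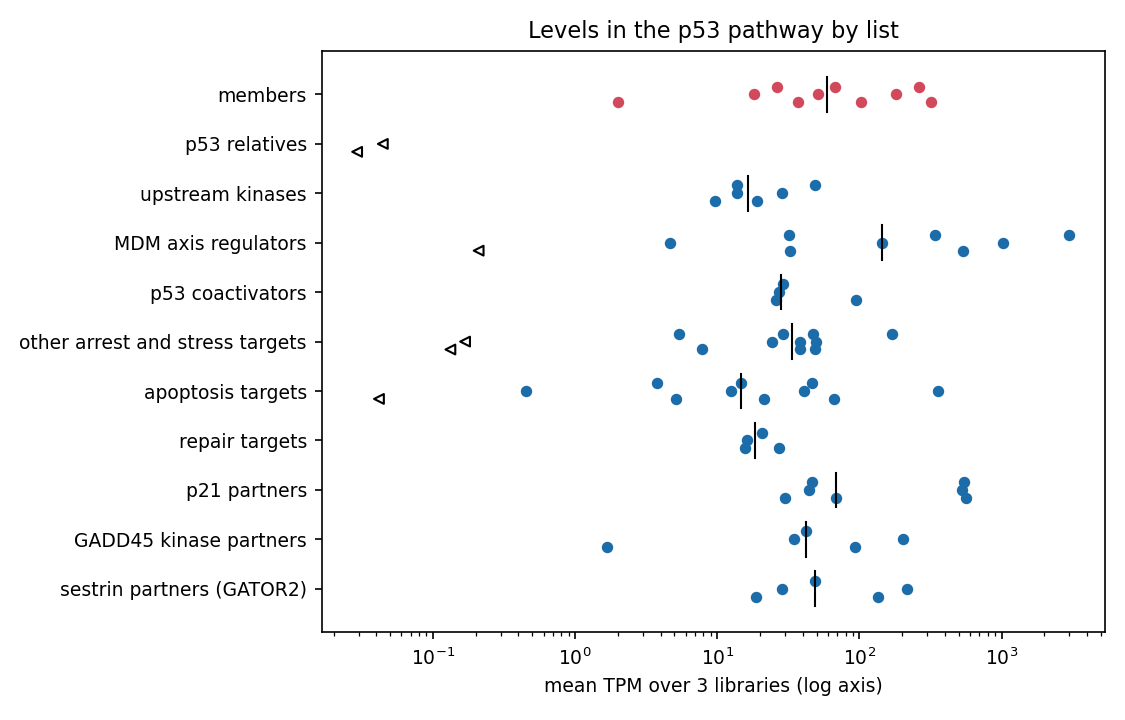
Mean TPM over 3 libraries (log axis) of the 10 members and of 65 further genes in 10 lists, 1 point a gene, with a line at each list's median. Open triangles mark the 6 genes without a fragment, at the TPM that 3 fragments would make. The members' median is 59.2 TPM, and both p53 relatives are without a fragment.

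Upstream of p53, the damage kinases were expressed at moderate levels, with 6 of 6 detected in each library (1 TPM) and a median of 16.4 TPM. Chek1, the checkpoint kinase of replication stress, was highest at 49.0 ± 4.93 TPM (SD, n = 3), and Atr, the kinase above it, lowest at 9.72 ± 0.844 TPM. The 4 p53 coactivators ran from Ep300, an acetyltransferase, at 25.9 ± 2.60 TPM to Kat5, another acetyltransferase, at 94.0 ± 4.91 TPM.

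Around Mdm2, the list of 9 regulators was split. Npm1, a nucleolar protein that binds Mdm2 under nucleolar stress, was highest at 2991 ± 220 TPM, though its processed copies in the genome leave its count and those of the ribosomal protein genes uncertain. Cdkn2a, whose Arf product blocks Mdm2, had no fragment in any library, where 3 fragments would make at most 0.21 TPM. The median of the list was 145 TPM.

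Among 12 other arrest and stress targets, 10 were detected in each library, and the median was 33.5 TPM. Plk3, a polo-like kinase, was highest at 171 ± 16.1 TPM, and Rprm, a mediator of G2 arrest, had no fragment (at most 0.168 TPM for 3 fragments), as did Gdf15, a secreted stress factor. Of 11 apoptosis targets, 9 were detected in each library, and the median was 14.7 TPM. Bax, the pore-forming effector of mitochondrial apoptosis, led at 355 ± 34.3 TPM, and Eda2r, a TNF receptor family member, had no fragment (at most 0.0417 TPM). The 4 repair targets lay close together, from Ercc5 at 15.8 ± 0.763 TPM to Ddb2 at 27.3 ± 2.49 TPM, both of nucleotide excision repair.

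Partners of the members' proteins were mostly above 10 TPM. All 7 genes of p21 partners reached 10 TPM in every library, from Ccna2 (cyclin A) at 29.8 ± 1.98 TPM to Pcna, the sliding clamp of replication, at 561 ± 15.2 TPM. In the kinase list of the GADD45 proteins, Map2k3, an activator of p38, was highest at 204 ± 4.39 TPM and Map2k6, its relative, lowest at 1.67 ± 0.271 TPM. All 5 GATOR2 genes, the complex that sestrins bind, reached 10 TPM in every library, from Wdr59 at 18.7 ± 1.70 TPM to Sec13, which also serves in vesicle coats, at 217 ± 7.29 TPM.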

How the data were processed

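For each of 3 libraries the authors deposited whole fragment counts by gene, not normalised, beside the merged exon length and exon coordinates. Per the file headers, featureCounts 1.4.6-p4 counted paired fragments with both ends aligned, on the reverse strand (option 2), over GENCODE mouse M13 exons. The build is mm10 per the labels. The version and settings of the aligner were not given in these sources. The command sets no option to count fragments that align to several places, so genes with near-identical copies can be undercounted.

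TPM was computed from counts over exon length. Symbols came from GENCODE M21 by unversioned identifier (50376 of 50600 matched), start sites from RefSeq. The chi-square test covered genes with at least 30 fragments in all, with library sizes scaled by TMM (edgeR 4.0.16, R 4.3.3). Alternatives used DESeq2 1.42.0 size factors. With 1 group the quasi-likelihood test has nothing to compare. Members of a pair were compared as log2((TPM + 1)/(TPM + 1)). GC content was that of the longest coding transcript, for 7567 of 7568 genes. The chi-square step with the ratio rule was tested on simulated counts that held counting error and planted changes only. That check does not cover further variation between libraries. Figures and remaining steps used Python 3.11.15, scipy 1.17.1 and matplotlib 3.10.9.

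Members and lists were chosen with earlier results of these data known. All members were named, with the highest and lowest gene of each other list, every gene of a list of 2, genes overlapping or copying a member, and the 3 genes nearest to Trp53, of which 1 is not reported here. Intervals and floors of 3 fragments cover counting error only; the files name no molecular identifiers.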

Additional observations from a re-analysis of the deposited data

How the results depend on the processing

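No comparison between conditions was possible because the libraries form a single group. The differences between members were taken within each library. Under TMM and DESeq2 scaling, TPM over nuclear protein-coding genes and the removal of any 1 library, 9 members stayed at 10 TPM or more and all 9 neighbouring pairs kept their order. The median member level was 63.0 TPM over nuclear protein-coding genes and 57.3 to 61.4 TPM without 1 library. Of the 5 differences between members, the sign of Mdm2 over Mdm4 reversed without division by length (-1.06 in log2 CPM); the other 4 kept theirs under every alternative run. With the longest coding transcript as length, 6 of the 9 neighbouring pairs kept their order without overlap. Called members numbered 9 under each scaling and filter, 8 without replicate 2, 6 without replicate 3 and 8 without replicate 4. Without replicate 2 Trp53 was no longer called (ratio 1.02, chi-square adjusted p = 0.12). Without replicate 3 Mdm2, Mdm4 and Sesn1 were not (ratios 1.01, 1.01 and 1.06), and without replicate 4 Ccng1 was not (ratio 1.03). The share of all genes called was 46.2% to 53.3% without 1 library, and 52.9% with no filter on low counts. The GC correction covered 9 members, all called, with 71.3% of 7567 genes.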

Other observations

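Trp53cor1 (lincRNA-p21), a p53-induced noncoding RNA transcribed near Cdkn1a in mouse and looked up after the members' values were seen, had 0, 1 and 8 fragments in replicates 2, 3 and 4, at most 0.0926 TPM, while Cdkn1a had 82.9 to 115 TPM. Mdm4-ps, a processed copy of Mdm4 on chromosome X, had 3, 0 and 7 fragments.
Inside the span of Sesn1, 9930024M15Rik lies on the same strand without a shared exon base and had 3, 0 and 11 fragments in replicates 2, 3 and 4.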
